A study of Mus musculus with 24 samples.

Results

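The genes described here are 44 interferon-stimulated genes, a list chosen by name and matched by symbol to the 63862 genes listed in the expression tables of mouse lacrimal gland (LG) and lacrimal gland stem cell (LGSC) spheres. Of the 44, 42 were above 0 in at least 1 of 20 libraries, and Ifit3 and Isg15 were listed at 0 in all 20 and were set aside as not measured. All samples came from C57BL/6 mice. The LGSC spheres were grown from glands of 6-8-week-old animals in Matrigel with a serum-free medium (LGSCM) holding EGF, FGF10, Wnt3A and the ROCK inhibitor Y-27632, and the spheres of passage 2 were collected at culture day 5 (2 libraries), day 7, day 10 and day 14 (3 libraries each). Whole LG was taken from adult mice, whose age the labels do not give, and from embryos of stages E17.5 and E19.5, named by the embryonic day, with 3 libraries of each. A further library held passage 10 spheres at day 7, and a day 5 replicate and passages 6 and 20 were not analysed here. No group carried an engineered allele, and no sample was labelled as treated with an interferon or infected.

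Interferons are secreted signals, of which those of type I are released by cells on sensing foreign nucleic acid. Type I interferons bind the receptor Ifnar1/Ifnar2 and act through a transcription factor complex that includes Stat2 and Irf9 and binds interferon-stimulated response elements (ISRE), while interferon gamma binds Ifngr1/Ifngr2 and acts at gamma-activated sites (GAS). The induced genes encode proteins that bind or degrade viral RNA, sense nucleic acid, attack vacuoles that hold pathogens, present antigen and limit the response itself.

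The expression value was the deposited FPKM (fragments per kilobase of transcript, divided by a library scale), a unit meant for comparing levels between genes. Library depth, recovered from the steps of the low values, was 6434711 to 9257981 reads in the 20 libraries, of which 92.6% to 93.6% of values were whole reads to within 0.01. Adult LG replicates 1 and 2 stood apart, with 60.4% and 59.6% of reads in the 10 top genes, against 31.3% in adult LG replicate 3 and at most 8.1% in the other libraries. The scale of their FPKM values also differed, with 2.667 and 2.567 recovered reads per unit of scale against 0.832 to 1.129 in the other 18. Several genes that nearly every cell uses were listed at or near 0 in the 20 libraries, among them Gapdh at 0 throughout and Eef1a1 at 0 to 0.562 FPKM. An FPKM of 0 was therefore read only as listed at 0. Low levels and rankings between genes below are those of the listed values, which may miss reads. Markers were checked against the labels. The summed level of 20 leukocyte markers was 0.482 to 3.17 FPKM in the spheres, with the pan-leukocyte gene Ptprc at 0.0489 FPKM or less, against 140 to 271 FPKM in adult LG, 88.6 to 108 FPKM in E17.5 LG and 118 to 152 FPKM in E19.5 LG. Epithelial markers summed to 550 to 2634 FPKM in the spheres, 758 to 1086 FPKM in adult LG, 330 to 472 FPKM in E17.5 LG and 759 to 950 FPKM in E19.5 LG. This sum was mostly Cdh1 and Krt18, with Epcam and Krt8 listed at 0 throughout, and did not set the spheres apart from adult or E19.5 LG. The basal keratin Krt14 stood at 3.35 to 17.8 FPKM in the spheres and at most at 0.781 FPKM in tissue. Nothing in the labels says that replicates were separate animals or cultures, so the p-values below measure the spread between these libraries, which may be technical. In bulk tissue, fewer cells of a type and less RNA per cell cannot be told apart.

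Most members were listed at low levels. Averaged over the 20 libraries, Bst2, which tethers budding virus to the cell surface, had the highest mean of the 44. The summed level of the members was 107 to 110 FPKM in E17.5 LG, 332 to 445 FPKM in E19.5 LG, 212 to 590 FPKM in adult LG and 74.5 to 421 FPKM in the spheres. Without Bst2 the sums were 62.7 to 67.0, 159 to 215, 131 to 364 and 55.2 to 186 FPKM, in the same order. Of the 42 measured members, 28 had their highest group mean in adult LG, 9 in E19.5 LG, 4 in LGSC day 14 and 1 in E17.5 LG. The lowest group mean fell in LGSC day 5 for 17 members and in E17.5 LG for 14.

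**Figure D1:**
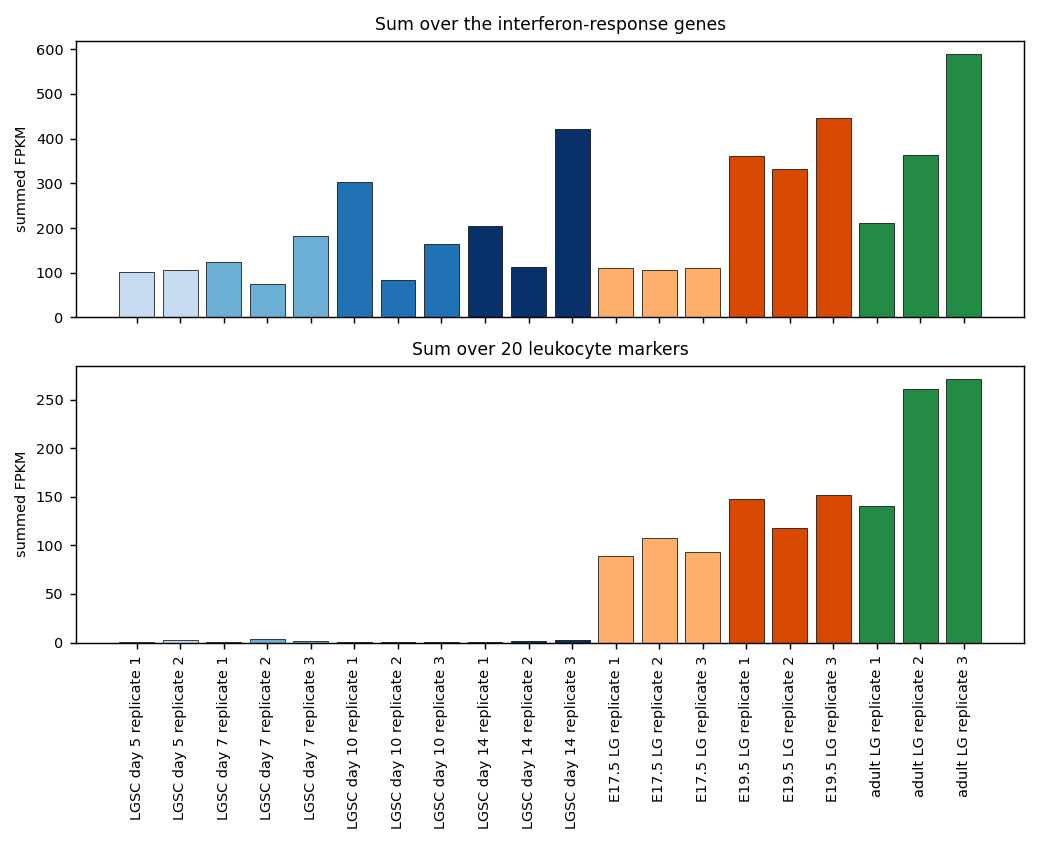
Summed FPKM per library (y axes) for the interferon-response genes and for 20 leukocyte markers, with 1 bar for each library named on the x axis, coloured by group. The member sums of E19.5 LG (332 to 445 FPKM) lie above all those of E17.5 LG (107 to 110 FPKM), and the leukocyte marker sums of the spheres do not pass 3.17 FPKM.

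The promoters of the members are shown before their values, because the elements named above are short enough to be read in them. RefSeq promoter windows (GRCm38.p6, 250 bases before to 50 bases after a transcript start) were found for 35 of the 44 members. Both strands were searched for the ISRE core, which is GAAA, any 2 bases and GAAA again (TTTC, any 2 bases and TTTC on the other strand), and for the GAS motif TTCNNNGAA, which reads the same on both strands. The motifs can overlap, and where core matches overlapped, as in Bst2, Irgm1, Gbp3 and Oas1a, the run is longer. The ISRE core was present in 18 of 35 members (51.4%) and in 3.44% of all 32851 windows (3.99% of 27025 genes). The GAS motif was present in 10 of 35 members (28.6%) and in 8.30% of all windows (9.55% of genes). The stretches below are shown because they belong to members that differed between the embryonic stages or to others described beside them, and each is written 5′ to 3′ on the strand of its gene with the ISRE core match in capitals. The first group holds members that passed the test between E17.5 and E19.5 LG and have a match.
Bst2: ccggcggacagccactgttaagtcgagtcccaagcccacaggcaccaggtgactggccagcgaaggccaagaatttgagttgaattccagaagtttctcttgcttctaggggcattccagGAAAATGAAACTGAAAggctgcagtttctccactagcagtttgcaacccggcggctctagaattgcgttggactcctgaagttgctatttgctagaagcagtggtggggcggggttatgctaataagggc
Gbp3: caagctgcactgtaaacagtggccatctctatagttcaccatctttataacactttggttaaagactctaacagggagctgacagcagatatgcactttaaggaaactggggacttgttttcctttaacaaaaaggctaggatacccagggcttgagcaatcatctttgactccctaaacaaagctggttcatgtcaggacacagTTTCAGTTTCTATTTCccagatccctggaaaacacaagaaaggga
Irgm1: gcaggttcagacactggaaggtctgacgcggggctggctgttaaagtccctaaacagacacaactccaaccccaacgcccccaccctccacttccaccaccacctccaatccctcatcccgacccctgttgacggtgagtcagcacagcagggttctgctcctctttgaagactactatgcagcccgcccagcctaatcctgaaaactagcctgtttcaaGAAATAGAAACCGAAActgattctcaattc
Trim30a: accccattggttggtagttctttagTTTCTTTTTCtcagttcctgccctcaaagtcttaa
Ifih1: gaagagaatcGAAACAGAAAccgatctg
These stretches are the minus strand of chr8:71537473-71537722 for Bst2, the plus strand of chr3:142559794-142560043 for Gbp3, the minus strand of chr11:48871421-48871670 for Irgm1, the minus strand of chr7:104465195-104465254 for Trim30a and the minus strand of chr2:62646206-62646233 for Ifih1. They lie upstream of the transcript start, except the Ifih1 stretch, which spans positions 23 to 50 of the transcript.

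The second group holds GTPases, a synthetase and an RNA-binding effector that were not called between the stages in the fit of 9 libraries. All lie upstream of the start, and the Ifit1 stretch holds a pair of matches.
Gbp2: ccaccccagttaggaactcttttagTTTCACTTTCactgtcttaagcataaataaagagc
Gbp7: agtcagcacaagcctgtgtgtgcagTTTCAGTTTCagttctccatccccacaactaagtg
Igtp: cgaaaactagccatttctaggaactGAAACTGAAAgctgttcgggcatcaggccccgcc
Oas1a: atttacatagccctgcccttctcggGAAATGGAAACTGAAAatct
Ifit1: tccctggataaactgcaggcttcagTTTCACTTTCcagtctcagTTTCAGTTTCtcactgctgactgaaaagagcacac
They are the plus strand of chr3:142620579-142620638 for Gbp2, of chr3:142530258-142530317 for Gbp7, of chr11:58199497-58199555 for Igtp and of chr19:34640760-34640838 for Ifit1, and the minus strand of chr5:120907526-120907570 for Oas1a. A match describes the letters only and was not tested for binding. Among the 9 members called between the embryonic stages, Phf11d and Ifi47 had a window without an ISRE core match, and Usp18 and Dhx58 had no window.

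The comparison of E19.5 with E17.5 LG asked what changed in the gland over the last days before birth. All 34 members tested had a higher mean log2 value at E19.5, with a median difference of 1.07 on the log2(FPKM + 1) scale against 0.02 over all 18578 genes tested. In 29 of the 34 every E19.5 library lay above every E17.5 library, which held for 19.8% of all genes. The members that passed the test numbered 9 (limma with Benjamini-Hochberg adjustment over all genes, adjusted p under 0.05), all of them higher at E19.5, against 1.11% of all genes called higher, 0.624% called lower and 1.74% called in either direction. In the files these are Bst2 (ENSMUSG00000046718), Usp18 (ENSMUSG00000030107), Ifih1 (ENSMUSG00000026896), Dhx58 (ENSMUSG00000017830), Gbp3 (ENSMUSG00000028268), Ifi47 (ENSMUSG00000078920), Irgm1 (ENSMUSG00000046879), Trim30a (ENSMUSG00000030921) and Phf11d (ENSMUSG00000068245). The 9 members, with the log2 difference ± SE and the adjusted p-value (limma, Benjamini-Hochberg), are given below by role. Because 1 is added before the logarithm, low genes appear to change less on this scale than their FPKM do.

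Among the antiviral effectors, Bst2 was at 45.5, 44.5 and 43.3 FPKM in E17.5 LG replicates 1, 2 and 3, at 164, 174 and 230 FPKM in E19.5 LG and at 80.8, 143 and 225 FPKM in adult LG. The E17.5 libraries lay below all others of the tissue, and the E19.5 and adult libraries overlapped. Bst2 rose by 2.05 ± 0.33 between the stages (adjusted p = 0.0259, limma), a ratio of means of 4.26. Cmpk2, a mitochondrial nucleotide kinase, was at 4.66, 4.54 and 4.62 FPKM at E17.5 and 14.1, 11.5 and 11.8 FPKM at E19.5, without overlap, but did not pass the test (adjusted p = 0.19, limma). In adult LG it was spread over 3.49, 6.74 and 16.6 FPKM.

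Usp18 removes the ubiquitin-like protein Isg15 from its targets and damps type I receptor signalling. It was at 0.737, 0.744 and 0.627 FPKM in E17.5 LG, 8.16, 4.66 and 7.31 FPKM in E19.5 LG and 6.39, 9.95 and 12.1 FPKM in adult LG. The E17.5 values lay below every E19.5 and adult value. The difference between the stages was 2.15 ± 0.25 (adjusted p = 0.00765, limma), with 14 to 20 recovered reads in an E17.5 library and 117 to 199 in an E19.5 library. Its partner Isg15 was not measured in these libraries.

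The RNA sensors rose in part. Ifih1, which encodes MDA5, a sensor of long double-stranded RNA, was at 1.15, 1.33 and 1.04 FPKM at E17.5, 4.08, 2.93 and 3.92 FPKM at E19.5 and 8.94, 12.1 and 9.76 FPKM in adult LG. The 3 stages did not overlap. The E19.5 minus E17.5 difference of Ifih1 was 1.09 ± 0.16 (adjusted p = 0.0218, limma). Dhx58, which encodes the related regulator LGP2, was at 1.65, 1.74 and 2.29 FPKM at E17.5, 6.96, 5.06 and 6.78 FPKM at E19.5 and 6.84, 9.64 and 13.7 FPKM in adult LG. It rose by 1.32 ± 0.24 between the stages (adjusted p = 0.0365, limma), and E17.5 overlapped neither of the others. Ddx58, which encodes RIG-I, was at 14.5, 14.3 and 13.6 FPKM at E17.5 and 21.4, 17.7 and 20.7 FPKM at E19.5 and did not pass the test (adjusted p = 0.261, limma), though the stages did not overlap.

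Of the 9 GTPases on the list, 8 were tested and 3 were called, and for all 8 the stages did not overlap. Gbp3, a guanylate-binding protein, was at 1.34, 1.27 and 1.72 FPKM at E17.5 and 15.4, 9.98 and 17 FPKM at E19.5, a difference of 2.60 ± 0.43 (adjusted p = 0.0279, limma). Ifi47, an immunity-related GTPase, was at 0.884, 0.755 and 1.31 FPKM at E17.5 and 9.57, 8.14 and 13.6 FPKM at E19.5, a difference of 2.51 ± 0.39 (adjusted p = 0.0235, limma). Both had ratios of means near the top of the list, 9.80 for Gbp3 and 10.6 for Ifi47. Irgm1, an immunity-related GTPase that guards vacuole membranes of the host, was at 2.19, 2.16 and 3.31 FPKM at E17.5 and 9.09, 11.3 and 16.1 FPKM at E19.5, a difference of 1.87 ± 0.29 (adjusted p = 0.023, limma). In adult LG, Gbp3 was at 4.7, 9.56 and 20.5 FPKM, Ifi47 at 2.85, 4.08 and 11 FPKM and Irgm1 at 5.71, 11.1 and 10.9 FPKM, which overlapped the E19.5 values for each. Gbp2 went from 3.32, 2.89 and 3.38 FPKM to 11.9, 9.68 and 13.9 FPKM without passing the test (adjusted p = 0.117, limma), and its stages did not overlap.

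Trim30a, a ubiquitin ligase of the TRIM family, was at 1.31, 1.21 and 1 FPKM at E17.5 and 5.15, 4.84 and 6.6 FPKM at E19.5, a difference of 1.58 ± 0.27 (adjusted p = 0.033, limma). Phf11d was at 0.314, 0.277 and 0.639 FPKM at E17.5 and 3.89, 2.84 and 3.46 FPKM at E19.5, a difference of 1.64 ± 0.32 (adjusted p = 0.047, limma). Neither overlapped between the stages. The 5 tested members whose stages overlapped were Irf1, Stat2, Psmb8, Psmb9 and Ifi27, so both tested transcription factors and both immunoproteasome subunits were in that set. Stat2, for example, was at 0.39, 0.21 and 0.38 FPKM at E17.5 and 0.54, 0.263 and 0.409 FPKM at E19.5. Psmb9 was at 0.141, 0.113 and 0.137 FPKM and then 0.125, 0.274 and 0.209 FPKM, which rests on 4 to 9 recovered reads per library. The others rest on 4 to 16 reads per embryonic library for Psmb8, 12 to 28 for Stat2, 15 to 32 for Ifi27 and 17 to 39 for Irf1. With so few reads, overlap does not show that these 5 stayed at the same level.

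**Figure D2:**
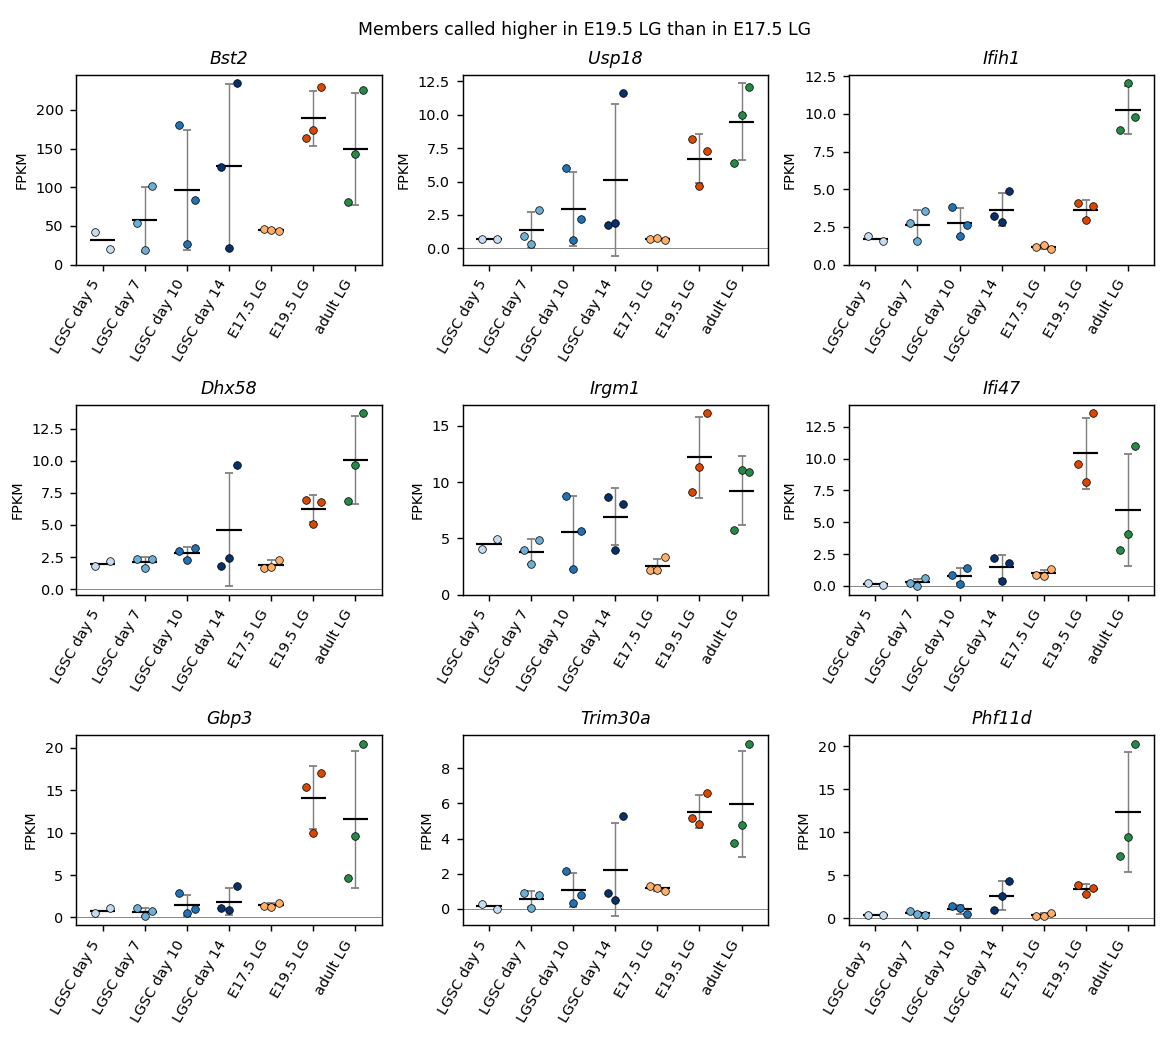
FPKM (y axis) of the 9 members called between E19.5 and E17.5 LG in each of the 20 libraries by group (x axis), with points for libraries, a black bar at the group mean and a grey line for its SD where a group has 3 libraries. In each panel the 3 E17.5 libraries lie below the 3 E19.5 libraries, as for Bst2 with 43.3 to 45.5 against 164 to 230 FPKM.

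The number of calls between the stages depended on which libraries gave the spread. The 9-library fit shares its spread with adult LG, in which the median SD of the tested members was 0.725 on the log2 scale against 0.0979 in E17.5 LG and 0.185 in E19.5 LG. Over all genes the same medians were 0.356, 0.134 and 0.153. With only the 6 embryonic libraries in the fit, 24 of 28 tested members were called, all higher at E19.5, against 7.71% of all genes called higher. The members tested but not called in it were Oasl2, Isg20, Irf1 and Ifi27. Leaving out 1 library gave 19 to 24 calls in that fit, beside 2.52% to 6.61% of all genes called higher. In the 9-library fit, leaving out adult LG replicate 1, 2 or 3 gave 17, 5 or 21 calls, beside 1.94%, 0.700% and 5.78% of all genes called higher. Leaving out E17.5 LG replicate 1, 2 or 3 gave 1, 1 or 2, and leaving out E19.5 LG replicate 1, 2 or 3 gave 2, 1 or 0, beside 0.193% to 0.625% of all genes. Without both adult LG replicates 1 and 2, whose composition stood apart, 27 members and 7.26% of all genes were called higher, with the spread then coming from the embryonic libraries. Scaled to equal sums or to recovered reads, 0 members passed in the 9-library fit (limma, with 1862 and 2251 of all genes at an unadjusted p under 0.05), while limma-voom on recovered reads called 14, and 22 and 23 passed under these scalings in the 6-library fit. Of all genes, 0.275% and 0.447% were called higher under these scalings in the 9-library fit and 1.73% by limma-voom. In the 6-library fit the scalings called 3.96% and 5.47% higher. Equal sums moved the median of all genes to -0.13, and the members' median stood 1.35 above it. The 9 called members were higher at E19.5 in each of these fits.

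The libraries of E19.5 LG were not alike in these genes. Replicate 2 was the lowest of the 3 for 27 of the 34 tested members, against 30.9% of all genes, and the highest for 2. Some markers of cell types moved between the stages as well, and others did not. Of 20 leukocyte markers, 12 were tested and 0 were called (limma, 9 libraries). In 8 of the 20 every E19.5 library was above every E17.5 library, beside 19.8% of all genes. In the 6-library fit 2 of 8 tested leukocyte markers were called, the macrophage genes Adgre1 and Csf1r, beside 7.71% of all genes called higher. Adgre1 was at 5.9, 8.98 and 7.55 FPKM at E17.5 and 14.3, 14.5 and 18.1 FPKM at E19.5. Of 7 epithelial markers 2 were tested. Cdh1 was at 132, 141 and 178 FPKM at E17.5 and 164, 161 and 147 FPKM at E19.5 and was not called (0.08 ± 0.16). The keratin Krt18 rose, from 198, 196 and 294 FPKM to 594, 690 and 803 FPKM, a difference of 1.61 ± 0.23 (adjusted p = 0.0183, limma). Of 4 endothelial markers 2 were tested and of 5 fibroblast markers 5, and in both lists 0 were called and 0 were without overlap. The part of these cell types in the members' difference was not tested.

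The comparison of E17.5 with adult LG showed the members at their lowest in tissue. Of 34 tested members, 26 were lower at E17.5 and 0 were higher, against 24.9% of all genes called lower, 29.1% called higher and 54.0% called in either direction (limma, 18578 genes). The median difference of the members was -1.57 and that of all genes 0.05. For 26 of the 34 every E17.5 library lay below every adult library, as it did for 27.2% of all genes. By role, those lower were 3 of 4 oligoadenylate synthetases, 3 of 4 sensors, 5 of 8 GTPases, 3 of 3 antigen processing genes and 5 of 5 other induced genes, while of the transcription factors Stat2 was called and Irf1 was not, and of the RNA-binding effectors Ifit1 was called and Ifit2 was not. With only the E17.5 and adult libraries fitted, 25 of 34 were called, all lower, against 46.3% of all genes called in either direction.

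The largest differences were in Phf11d, Usp18 and Oas1a. Phf11d, at 0.277 to 0.639 FPKM in E17.5 LG, was at 7.19, 9.47 and 20.3 FPKM in adult LG, a difference of -3.12 ± 0.32 (adjusted p = 7.64e-05, limma). For Usp18 the difference was -2.58 ± 0.25 (adjusted p = 5.11e-05, limma). Neither gene overlapped between the groups. Oas1a, a synthetase whose product activates RNase L, was at 1.09, 1.27 and 1.13 FPKM at E17.5 and 5.94, 13.2 and 17.53 FPKM in adult LG, a difference of -2.50 ± 0.35 (adjusted p = 0.000396, limma). It shares 40.9% of its transcript in runs of 100 bases with another gene, most of it with Oas1g, so its reads may be split or lost and its level is uncertain. The related Oasl1, a repressor of Irf7 translation, was at 0.838, 0.557 and 0.383 FPKM at E17.5 and 0.636, 2.06 and 4.58 FPKM in adult LG, and the groups overlapped.

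Ifit1, an effector that binds viral RNA lacking host cap marks, was at 0.484, 0.234 and 0.235 FPKM at E17.5, 5.86, 2.55 and 7.05 FPKM at E19.5 and 2.5, 5.11 and 16.3 FPKM in adult LG. Against adult LG it was lower at E17.5 by a log2 value of -2.45 ± 0.54 (adjusted p = 0.00493, limma) and not called at E19.5. Its neighbour in the family, Ifit2, went another way, with 7.56, 6.95 and 6.94 FPKM at E17.5, 11.8, 10.1 and 12.3 FPKM at E19.5 and 3.27, 3.53 and 10.4 FPKM in adult LG. Tap1, which carries peptides into the endoplasmic reticulum for presentation, was at 7.04, 6.82 and 7.26 FPKM at E17.5, 15.8, 13.3 and 16.3 FPKM at E19.5 and 14.5, 26.8 and 33.9 FPKM in adult LG. It was lower at E17.5 than in adult LG (-1.62 ± 0.27, adjusted p = 0.00109, limma) and not called at E19.5. Psmb9, a subunit of the immunoproteasome, was at 1.25, 2.16 and 3.33 FPKM in adult LG, above every embryonic library.

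For E19.5 against adult LG, which shares the adult libraries with the comparison above, 2 members were called higher and 10 lower of 34 tested, beside 30.3% and 23.9% of all genes and 54.2% for both directions together. The median was -0.37, beside 0.09 for all genes. The 3 called lower members with the largest differences were Ifi27 (-1.93 ± 0.16, adjusted p = 3.26e-05, limma), Phf11d (-1.48 ± 0.32, adjusted p = 0.00467, limma) and Gbp5 (-1.39 ± 0.27, adjusted p = 0.00263, limma). Ifi27, which encodes a mitochondrial membrane protein, was at 2.02, 1.98 and 1.28 FPKM at E17.5, 2.49, 2.12 and 1.65 FPKM at E19.5 and 10.2, 11.4 and 10.5 FPKM in adult LG. Both embryonic stages lay below the adult libraries and overlapped each other. Gbp5, a guanylate-binding protein tied to inflammasome assembly, was at 0.0775, 0.0938 and 0.151 FPKM, then 0.758, 0.503 and 0.768 FPKM, then 1.94, 3.23 and 5.77 FPKM, in the same order of stages and with no overlap.

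The 2 members called higher at E19.5 than in adult LG were Ifit2 (1.03 ± 0.34, adjusted p = 0.0302, limma), whose groups overlapped, and Ddx58 (0.66 ± 0.18, adjusted p = 0.0139, limma). Ddx58 was at 9.41, 12.4 and 15.6 FPKM in adult LG, below each E19.5 library. Neither was called higher when only the 6 libraries compared were fitted (0 higher and 7 lower, with 45.7% of all genes called in either direction), and without adult LG replicates 1 and 2 there were 0 higher and 23 lower, beside 53.8% of all genes called. That last fit leaves 1 adult library, replicate 3, which is assumed to vary like the embryonic groups. Without adult LG replicate 3 there were 8 called higher and 9 lower, beside 35.2% of all genes called higher and 63.6% in either direction. Without adult LG replicate 1 there were 1 and 16, beside 29.1% and 51.3% of all genes. Without E19.5 LG replicate 2 or 3 the total fell to 8, beside at most 45.1% of all genes called.

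The adult libraries themselves were ordered in these genes. Adult LG replicate 1 was the lowest of the 3 for 31 of the 34 tested members, against 42.2% of all genes, and replicate 3 was the highest for 30, against 41.1%. Replicates 1 and 2 are those with the larger share of reads in 10 genes. Both comparisons with adult LG also depend on how libraries are scaled to each other. When every library was scaled to the same sum, the median of all genes moved to 1.48 for E17.5 and 1.31 for E19.5, and when they were scaled to recovered reads to 0.57 and 0.52. Relative to the median of all genes, the members' median was -1.63 as deposited, -1.76 scaled to the sum and -1.36 scaled to recovered reads for E17.5, and -0.46, -0.10 and -0.25 for E19.5. At E17.5, 31, 32 and 32 of 34 members lay below the median of all genes under these scalings, and at E19.5 24, 21 and 22 did. Not taken relative to that median, equal sums gave 3 members called higher against 2 lower for E17.5 LG. Of all genes, 65.9% were called higher there and 72.1% in either direction. For E19.5 LG equal sums gave 11 members higher and 0 lower, beside 61.0% of all genes called higher and 66.7% in either direction. With equal sums 14 of 34 members were above 0 at E17.5, against 3 as deposited. Of the 26 called as deposited, Bst2, Gbp2, Tap1, Stat2, Irgm1 and Dtx3l turned positive.

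**Figure D3:**
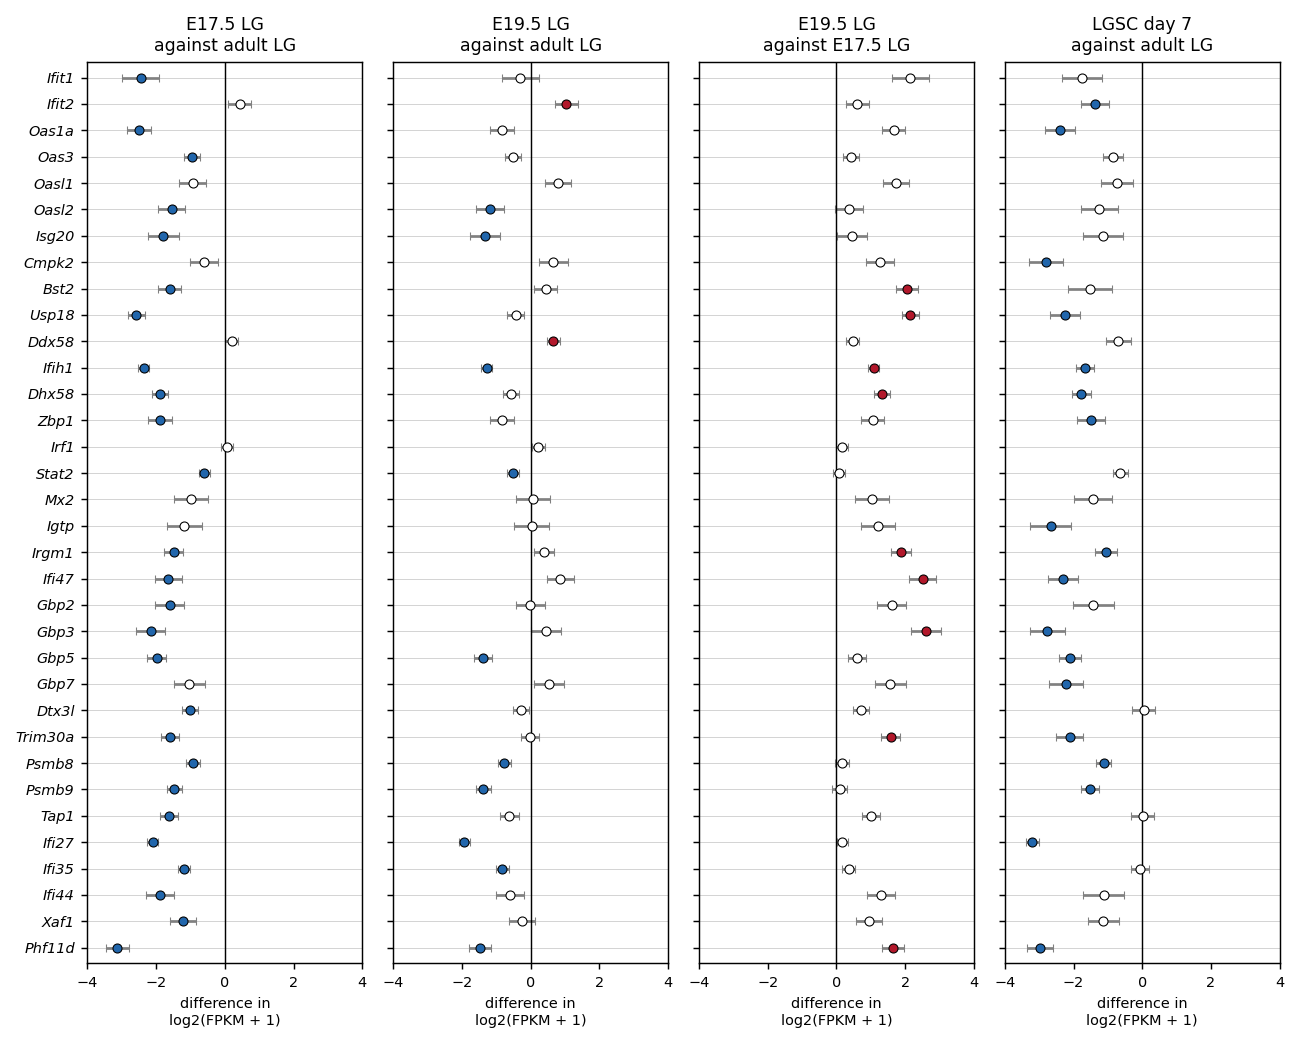
Log2 difference ± SE on the log2(FPKM + 1) scale (x axis) for each tested member (y axis) in 4 comparisons, with filled points for an adjusted p-value under 0.05 (limma). Of 34 members, 26 are called lower at E17.5 than in adult LG, and all 34 lie to the right of 0 for E19.5 against E17.5.

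Cultured spheres at day 7 were compared with the adult gland. Of 33 tested members, 18 were lower in LGSC day 7 than in adult LG and 0 were higher, against 21.1% of all 17698 genes called lower and 35.2% called in either direction (limma, 6 libraries). The median was -1.49 and that of all genes -0.08. Of the GTPases 6 of 8 were lower, of the sensors 3 of 4 and of the antigen processing genes 2 of 3. The adult libraries are the same ones as above.

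The called members with the largest differences were Ifi27, Phf11d and Cmpk2. Ifi27 was at 0.442, 0.0872 and 0.304 FPKM in LGSC day 7, a difference of -3.20 ± 0.19 (adjusted p = 0.000185, limma). Phf11d was at 0.792, 0.512 and 0.397 FPKM, a difference of -2.97 ± 0.37 (adjusted p = 0.00196, limma), and Cmpk2 at 0.208, 0.0307 and 0.483 FPKM, a difference of -2.79 ± 0.49 (adjusted p = 0.00665, limma). None of the 3 overlapped with adult LG.

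Some members were as high in the spheres as in the gland. Tap1 was at 23.8, 27 and 21.1 FPKM in LGSC day 7, inside the adult range, with a difference of 0.01 ± 0.33. Dtx3l, a ubiquitin ligase that pairs with Parp9, was at 8.13, 4.45 and 7.82 FPKM in LGSC day 7 and 4.56, 5.68 and 9.74 FPKM in adult LG, a difference of 0.05 ± 0.34. Both groups overlapped. Bst2 was at 53.3, 19.3 and 102 FPKM in LGSC day 7 and was not called (-1.52 ± 0.65, adjusted p = 0.114, limma). Over the same comparison 13 of 13 tested leukocyte markers were lower in the spheres, and their part in the members' difference was not tested. Scaled to equal sums the median of all genes moved to 1.38 and 2 members were called higher and 2 lower, with the members' median 1.67 below that of all genes, beside 1.41 below as deposited. Equal sums called 53.3% of all genes higher and 60.5% in either direction. Leaving out 1 library gave 13 to 21 called members, beside 21.2% to 47.1% of all genes.

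**Figure D4:**
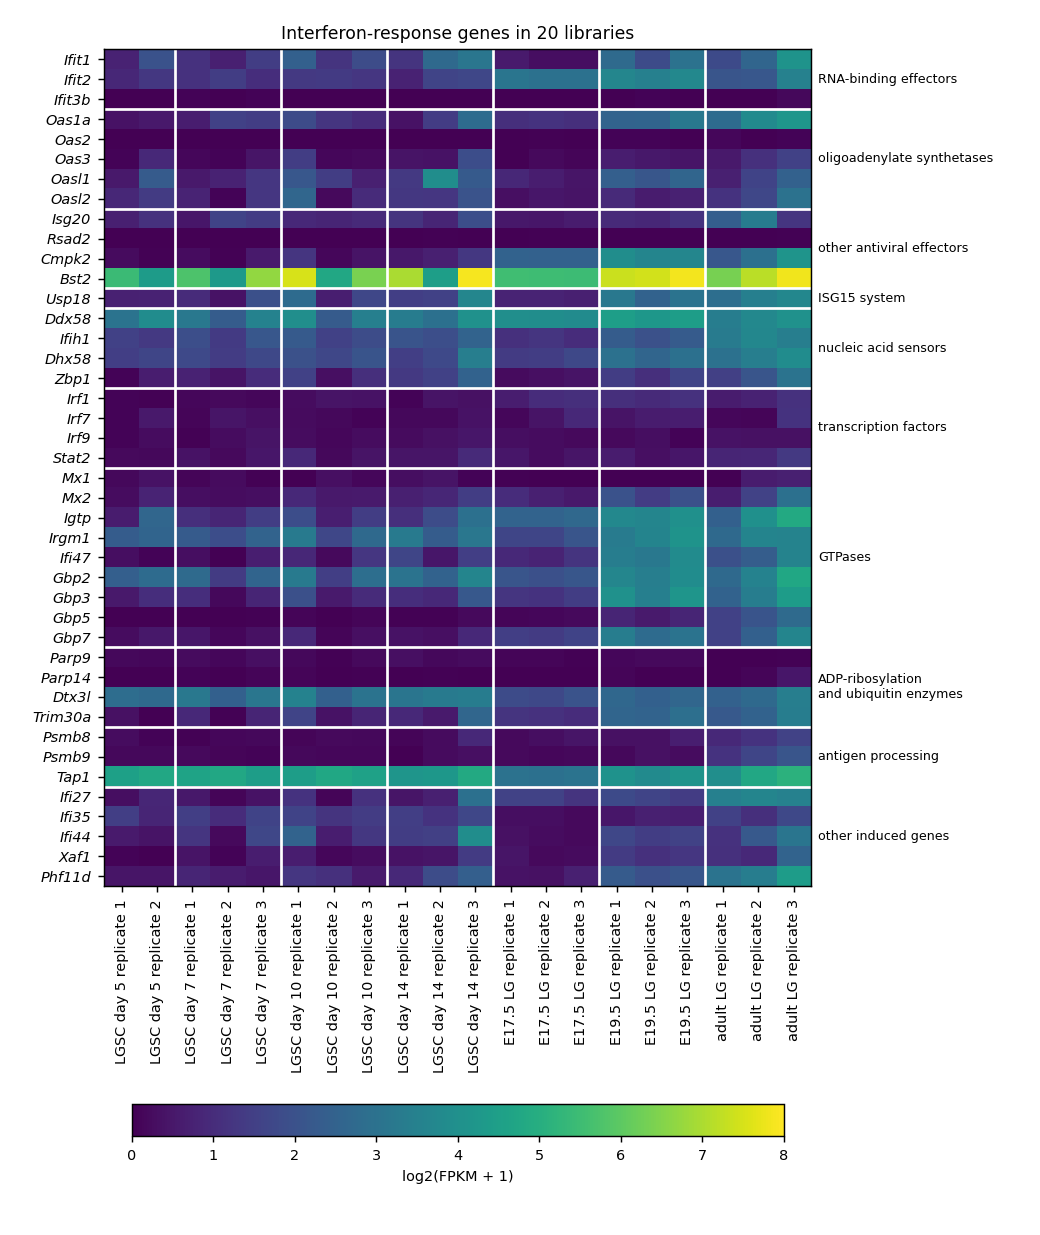
Heat map of log2(FPKM + 1), shown by colour, for the 42 measured members (rows, by role) in 20 libraries (columns, by group). Brighter cells are higher, Bst2 has the brightest row, and the E17.5 LG columns are darker than those of E19.5 LG for most members (29 of 34 tested did not overlap).

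Between LGSC day 7 and day 14, 0 of 28 tested members and 0 of all 15744 genes were called (limma, 0% of genes), and limma-voom on recovered reads also called 0 members. Same-numbered spheres moved together, and with the replicate block limma called 0 members and 0 genes, and limma-voom 0 members beside 66 genes higher and 50 lower. At an unadjusted p under 0.05 there were 6 members and 1557 genes. The median of the members was 0.71 and that of all genes 0.01, and 27 of the 28 were above 0, Tap1 being the exception. Without overlap between the days were Oasl1, Zbp1, Mx2 and Phf11d, 4 members, against 8.26% of all genes. Zbp1, a sensor of Z-form nucleic acid, was at 0.704, 0.326 and 1.01 FPKM at day 7 and 1.53, 1.91 and 4.74 FPKM at day 14. Oasl1 was at 0.456, 0.686 and 1.41 FPKM at day 7 and 1.51, 14.2 and 3.83 FPKM at day 14. No member lay below in every library, as 9.12% of all genes did. These 4 were named after their values were seen. Within the 3 pairs of the same replicate number, 19 of the 28 members were higher at day 14 in every pair, beside 19.9% of all genes, and 0 were lower in every pair, beside 17.9%.

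Over the 4 culture days, 25 of 26 tested members had a slope above 0 and 0 were called, against 2.14% of all 15584 genes called in either direction, 0.648% called with a rising slope and 1.5% with a falling one (limma). At an unadjusted p under 0.05 there were 9 members. The smallest adjusted p-values were those of Phf11d (0.15 ± 0.04 per day on the log2 scale, adjusted p = 0.0583, limma) and Zbp1 (0.15 ± 0.04, adjusted p = 0.0665, limma). The replicate numbers of the spheres moved together across days, so a fit with the number as a block was set beside it. With the replicate block 1 member was called, Ifi47 (0.11 ± 0.02 per day, adjusted p = 0.0265, limma), against 2.12% of all genes rising. With the block in limma-voom on recovered reads 4 were called, Ifi47, Zbp1, Phf11d and Ifi44, against 4.09% of all genes. Ifi47 was at 0.238 and 0.0596 FPKM at day 5, 0.218, 0 and 0.587 FPKM at day 7, 0.868, 0.158 and 1.4 FPKM at day 10 and 2.18, 0.409 and 1.8 FPKM at day 14. The adult libraries lay above all of these. Without the block, leaving out day 10 replicate 2, day 14 replicate 1 or day 14 replicate 2 each gave 1 call and leaving out any other library 0.

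The sphere libraries of one day differed from each other in these genes. Bst2 was at 42.7 and 19.8 FPKM in day 5 replicates 1 and 2, 53.3, 19.3 and 102 FPKM in day 7 replicates 1 to 3, 181, 26.9 and 83.1 FPKM at day 10 and 126, 21.3 and 235 FPKM at day 14. Replicate 2 held the lowest Bst2 value at each day. Of the 26 members tested for a slope, replicate 2 was the lowest at days 7, 10 and 14 for 11, against 14.2% of all genes. Krt18 was also lowest in replicate 2, with 139, 130, 176 and 152 FPKM over the days against 689 to 1734 FPKM in replicates 1 and 3. The basal keratins Krt14 and Krt5, in contrast, were highest in replicate 2 at days 7, 10 and 14. Krt14 was at 17.8, 15.7 and 8.18 FPKM in replicate 2 on those days and at 3.35 to 9.53 FPKM in the others. A second pattern was in day 14 replicate 3, which held the highest sphere value of 21 of the 26 members, against 10.7% of all genes. Ifi44 was at 14.2 FPKM and Usp18 at 11.6 FPKM there, where the highest of the other spheres were 4.89 and 6 FPKM. Ddx58 ran from 3.92 to 15.5 FPKM over the 11 spheres, and Gbp2 from 1.63 to 11.4 FPKM.

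**Figure D5:**
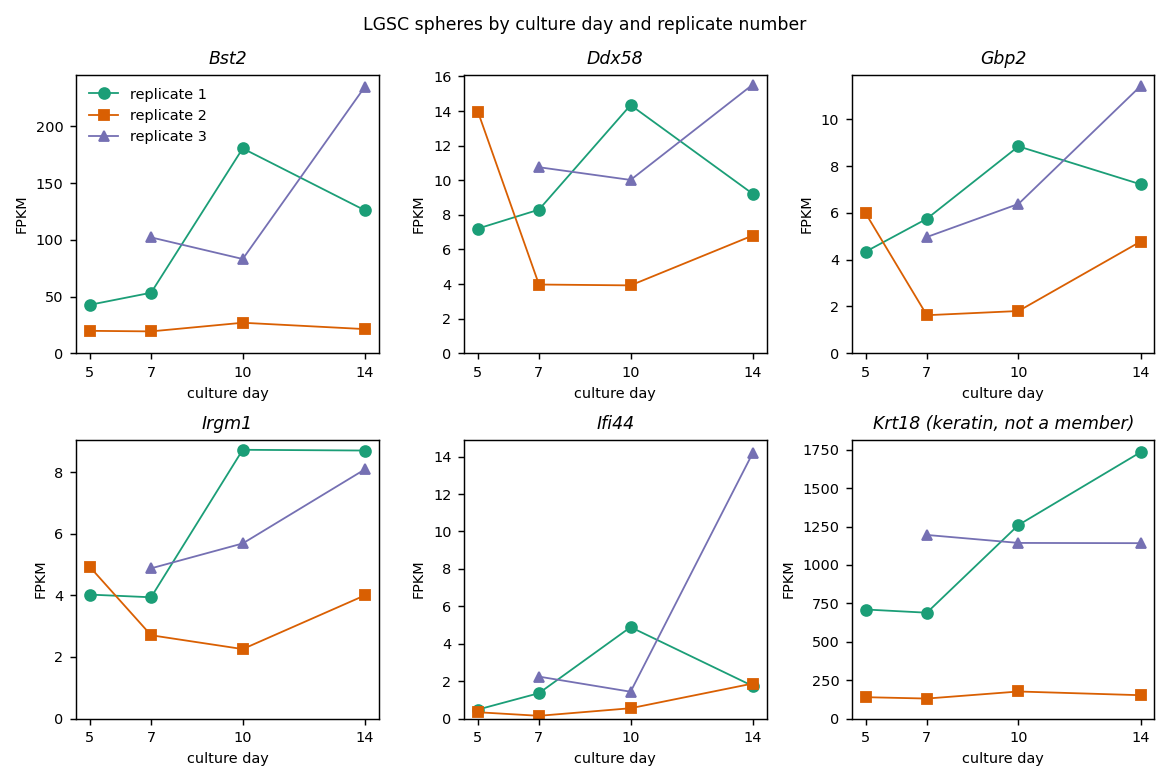
FPKM (y axis) against culture day (x axis) in the passage 2 spheres for Bst2, Ddx58, Gbp2, Irgm1, Ifi44 and the epithelial keratin Krt18, with lines joining libraries of the same replicate number. Replicate 2 has the lowest Bst2 at each day (19.3 to 26.9 FPKM), and day 14 replicate 3 has the highest Ifi44 (14.2 FPKM).

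Of the measured members, 8 had a mean under 0.5 FPKM in each of the main fits and were not tested in them. Ifit3b, Oas2 and Rsad2, an enzyme that makes a chain-terminating nucleotide, did not pass 0.131 FPKM in any of the 20 libraries. Mx1, Parp9, Parp14 and Irf9 did not pass 0.611 FPKM. Irf7, the factor that amplifies type I interferon production, ranged from 0.0612 FPKM to 1.25 FPKM, its value in adult LG replicate 3. A member could pass this limit through the group in which it was high, so the counts above describe the tested members and not the whole list.

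The passage 10 library was deeper (25181779 recovered reads) and was made against another gene list, so its values are given without a test. Of the 44 members, 23 lay above all passage 2 day 7 libraries, 15 within their range and 6 below. The same shares over all genes were not counted, so these numbers are not read as particular to the members. More than 10 times the highest day 7 value were Irf1 (15.3 FPKM), Irf9 (5.20 FPKM), Mx1 (3.25 FPKM), Ifit3b (1.18 FPKM), Parp9 (6.85 FPKM), Parp14 (2.12 FPKM) and Ifi27 (18.1 FPKM). Below all day 7 values were Oas1a (0.357 FPKM), Bst2 (14.6 FPKM), Dhx58 (1.21 FPKM), Igtp (0.686 FPKM), Irgm1 (1.53 FPKM) and Tap1 (10.1 FPKM). The tables also differed outside the list. Of 18333 Ensembl genes listed at 0 in all 20 libraries, 1098 were at 1 FPKM or more in the passage 10 library. Passage, depth and gene list cannot be told apart.

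Of the other interferon pathway genes, the 18 ligands were at or near 0. Above 0.5 FPKM in any of the 20 libraries were Ifnb1 (0.699 FPKM in adult LG replicate 3), Ifng (1.70 FPKM in adult LG replicate 2), Ifnab (0.796 FPKM in LGSC day 14 replicate 3, with 0.785 and 0.709 FPKM in E17.5 LG replicates 2 and 3) and Ifne (0.888 FPKM in LGSC day 5 replicate 2, with 4 other sphere libraries from 0.508 to 0.782 FPKM). None of them was tested.

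The receptor chains differed among themselves and did not move between the embryonic stages, where 0 of 4 tested passed (limma). Ifngr2, the signalling chain of the interferon gamma receptor, was at 33.0, 31.2 and 31.0 FPKM in E17.5 LG, 32.2, 35.6 and 37.6 FPKM in E19.5 LG, 14.1, 12.6 and 11.7 FPKM in adult LG and 26.0 to 54.9 FPKM in the spheres. It was higher than in adult LG at E17.5 (1.25, adjusted p = 7.49e-05, limma), at E19.5 (1.39, adjusted p = 4.79e-05, limma) and in LGSC day 7 (1.32, adjusted p = 0.0062, limma), so it ran opposite to most members in the E17.5 and day 7 comparisons. Its partner Ifngr1 was lower than in adult LG at both stages (-0.83 and -0.80, adjusted p = 0.00257 and 0.00322, limma). Its values were 0.109 to 0.271 FPKM in embryonic and 0.776 to 1.61 FPKM in adult LG. Ifnar1 was higher than in adult LG at both stages (0.74 and 0.66, adjusted p = 0.00648 and 0.0111, limma). Ifnar2 was listed at 0 in most libraries and at most 0.204 FPKM in the 20. In the passage 10 library Ifnar2 was at 6.54 FPKM and Ifngr1 at 33.1 FPKM, while Ifngr2 was at 16.1 FPKM, below the other spheres. A value at or near 0 in the 20 libraries was therefore not read as absence of a chain.

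Among 20 further induced genes, 14 were tested in tissue. At E17.5 against adult LG 2 were higher and 9 lower, at E19.5 4 were higher and 5 lower, and at E19.5 against E17.5 2 were higher and 0 lower. Of all genes, 29.1% were called higher and 24.9% lower at E17.5, 30.3% and 23.9% at E19.5, and 1.11% and 0.624% between the stages. The pair higher at E19.5 than at E17.5 were Ly6e (1.57, adjusted p = 0.00732, limma), a surface protein, and B2m (1.12, adjusted p = 0.023, limma), the light chain of MHC class I. B2m was at 339, 363 and 376 FPKM in E17.5 LG, 669, 739 and 963 FPKM in E19.5 LG and 1684, 1864 and 1549 FPKM in adult LG, with no overlap between the 3. The genes Ifitm1 and Ifitm2, whose products block viral entry, were higher than in adult LG at both stages. Of the kinases and transcription factors, 3 of 5 tested were lower at E17.5 and 2 of 5 at E19.5 than in adult LG, with 0 higher. Of the sensing adaptors, 1 of 5 was higher and 3 were lower at E17.5, and 1 was higher and 1 lower at E19.5. The shares of all genes given above apply to these sets of 5 as well, and counts of 1 are near them. The 1 inhibitor tested in tissue was not called.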

How the data were processed

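Tables of 20 libraries (passage 2 LGSC and whole LG) and of 1 passage 10 library were used. The labels list 24 samples, of which 21 had a file. The authors isolated RNA with Trizol, prepared poly-T selected NEBNext Ultra libraries, sequenced them as 150-bp paired ends and tested them with DESeq2. The submitters' processing notes name CASAVA 1.8, HISAT2 2.0.5, featureCounts 1.5.0-p3 and the build NCBIM37. Values were deposited by the authors as FPKM, and the step from counts to FPKM is not given in the sources used here. Since the deposited scale was not the library total and differed in adult LG replicates 1 and 2, each comparison was repeated under other scalings. Depth was 6434711 to 9257981 recovered reads.

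Values were tested with limma 3.58.1 (lmFit and eBayes with trend, R 4.3.3) on log2(FPKM + 1), in genes that averaged 0.5 FPKM or more in the fitted libraries. P-values were adjusted by Benjamini-Hochberg over all genes tested, with a threshold of 0.05. The tissue comparisons came from 1 fit of 9 libraries, so those against adult LG share controls. Alternatives were a pseudocount of 0.1, no filter, other scalings, limma-voom on recovered reads, other libraries in the fit, a replicate block and each library left out. The test was run on simulated data first. Tables were made with Python 3.11.15, pandas 2.3.3, numpy 2.4.6 and matplotlib 3.10.9.

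Same-numbered sphere libraries deviated together (correlation of deviations from the group means 0.26 to 0.72, mean 0.46, over 15 pairs), so blocked values stand beside the sphere results where they change a call. Named members were the 2 with the highest mean in each role and, per comparison, the 3 called members with the largest difference in each direction whose groups did not overlap, with any direction taken by 5 or fewer members named in full. Of the other pathway genes, the receptors and the ligands above 0.5 FPKM were named, and a further gene of the rule is not reported here. Members and lists were chosen with earlier results of these data known. Promoter windows came from RefSeq (GRCm38.p6), and no coordinate was taken from the build of the files. Uniqueness was measured as shared runs of 100 bases in GENCODE M21 transcripts.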

Additional observations from a re-analysis of the deposited data

Results flagged for a closer look

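The change against adult LG differed between the embryonic stages for 9 of 34 tested members (limma, adjusted p under 0.05, 3 libraries a stage). Of all genes, 1.11% were called higher. The adult term cancels in this difference, so it repeats the E19.5 against E17.5 test above and is no separate result. Scaled to equal sums or to recovered reads, 0 members passed in this fit. The E19.5 minus E17.5 difference on the log2(FPKM + 1) scale was 2.60 for Gbp3, 2.51 for Ifi47, 2.15 for Usp18, 2.05 for Bst2, 1.87 for Irgm1, 1.64 for Phf11d, 1.58 for Trim30a, 1.32 for Dhx58 and 1.09 for Ifih1. Each was higher in 3 of 3 E19.5 libraries than in all E17.5 libraries, as were 29 tested members and 19.8% of all genes.

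In the passage 10 library, which enters no test, Ifit3 was at 2.51 FPKM and Isg15 at 3.78 FPKM, while both were listed at 0 in the 20 other libraries. In the same library 7 members were at more than 10 times the highest passage 2 day 7 value, and the share of all genes was not counted. Gapdh, listed at 0 in the other 20, was at 3.0 FPKM there, Eef1a1 at 3461 FPKM and Krt14 at 7065 FPKM, so genes outside the list differed between the tables too. Groups of 2 or 3 libraries were too small to test single libraries as outliers.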

How the results depend on the processing

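The number of called members moved with the scaling of the libraries and with the libraries in the fit. With other scalings, for E17.5 against adult LG it went from 26 to 5 with equal sums and 11 scaled to recovered reads, for LGSC day 7 against adult LG from 18 to 4 and 3, and for E19.5 against adult LG from 12 to 6 scaled to recovered reads. The share of all genes called rose meanwhile, from 54.0% to 72.1% and 57.4% for E17.5 and from 35.2% to 60.5% and 41.2% for LGSC day 7. For E19.5 it was 54.2% as deposited and 54.8% scaled to recovered reads. With equal sums, which raised the median of all genes against adult LG, the members above 0 went from 3 to 14 of 34 at E17.5, from 12 to 29 of 34 at E19.5 and from 2 to 14 of 33 in LGSC day 7. The members called lower as deposited that turned positive were at E17.5 Gbp2 (0.23), Tap1 (0.43), Stat2 (0.11), Bst2 (0.60), Irgm1 (0.30) and Dtx3l (0.74), at E19.5 Ifi35 (0.046), Ifih1 (0.42), Isg20 (0.045), Stat2 (0.15) and Phf11d (0.17), and in LGSC day 7 Dhx58 (0.036), Ifih1 (0.22), Ifit2 (0.14) and Irgm1 (0.88). For E19.5 against adult LG, 23 were called without adult LG replicates 1 and 2, which leaves 1 adult library (53.8% of all genes were called), and 7 with only the groups compared.

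For E19.5 against E17.5 LG, 9 became 0 with equal sums, 0 scaled to recovered reads, 14 with limma-voom, 27 without adult LG replicates 1 and 2 and 24 with only the groups compared (22 with equal sums, 23 scaled to recovered reads). Of all genes, 0.511% were called with equal sums, 0.915% scaled to recovered reads, 2.76% with limma-voom and 12.4% with only the groups compared. In that last fit 11.4% were called with equal sums and 11.5% scaled to recovered reads. Leaving out each library gave 0 to 21 calls, beside 0.269% to 9.43% of all genes. With only the groups compared it gave 19 to 24 calls, beside 3.49% to 10.5%. The slope gave 1 call with a pseudocount of 0.1, 1 with limma-voom and 0 to 1 with each library left out. Beside these, 2.25%, 2.69% and 0.0702% to 2.46% of all genes were called. The causes were not tested beyond the scaling itself. Left-out libraries gave 24 to 31 calls for E17.5 and 8 to 17 for E19.5 against adult LG, and 13 to 21 for LGSC day 7. Of all genes, 45.3% to 63.4% were called in these fits for E17.5 and 21.2% to 47.1% for LGSC day 7. For E19.5 the share was 63.6% without adult LG replicate 3 and 45.1% without E19.5 LG replicate 2.

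With the replicate block, E19.5 against E17.5 LG gave 5 calls (23 with only the groups compared), E17.5 against adult LG 26, E19.5 against adult LG 15, LGSC day 7 against adult LG 17, day 14 against day 7 0 and the slope 1 (4 with limma-voom). In the same order, 0.538% (7.58%), 51.1%, 51.3%, 28.4%, 0% and 5.02% (9.91%) of all genes were called. Tissue libraries share only a number, since same-numbered deviations correlated at -0.079 to 0.062. The 8 measured members that averaged under 0.5 FPKM in every main fit had at most 36 recovered reads in a library and entered none of the main tests. Each was listed higher in the passage 10 library than in any passage 2 day 7 library. Why they were listed so low in the 20 libraries was not tested.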
